A study of Mus musculus with 6 samples.

Results

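The 10 genes described here encode enzymes of glycolysis and the subunits of lactate dehydrogenase: Hk1, Gpi1, Pfkm, Aldoa, Gapdh, Pgk1, Eno2, Pkm, Ldha and Ldhb. They were selected on gene name from a deposited table of 55414 mouse genes, and 11 rows carried such a name, because Aldoa is listed under 2 gene identifiers. The list was drawn up with the FPKM values of these same libraries known, and the values that guided it were not recorded. The difference between the groups in these 10 genes is therefore given as a description, with no test.

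The study profiled neurons of the medial mammillary nucleus, a cell group of the posterior hypothalamus, in male mice whose age is not given. Fluorescent cells from papain-digested slices were collected by aspiration with glass electrodes, and a SMARTer mRNA kit was used for the libraries. The genotype label reads PV-positive (parvalbumin, a calcium-binding protein) for 3 libraries, replicates 6, 7 and 8, and Drd2-positive (the D2 dopamine receptor) for the other 3, replicates 1, 2 and 3. Libraries within a group are described as biological replicates in the series. The sources used here do not give the driver lines and reporters behind the fluorescence, any treatment, or the number of cells or mice per library, so the spread within a group may be partly technical. Because each library is a bulk sample, fewer cells of a type and less RNA per cell cannot be told apart.

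Glycolysis converts glucose to pyruvate in the cytosol and yields ATP and NADH. Hexokinase, glucose phosphate isomerase, phosphofructokinase and aldolase form its upper part, and glyceraldehyde-3-phosphate dehydrogenase, phosphoglycerate kinase, enolase and pyruvate kinase its lower part. Lactate dehydrogenase, a tetramer of A subunits (from Ldha) and B subunits (from Ldhb), interconverts pyruvate and lactate. In brain, B subunits are usually described as the main form of neurons, and parvalbumin neurons that fire at high rates are known for a high demand for energy.

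Of the 10 genes, Ldha and Gapdh were the 2 whose levels did not overlap between the groups, and both were lower in every PV library, as were 13.1% of all genes tested. Mean Ldha was 4.28 times as high in Drd2 as in PV libraries, while Ldhb overlapped between the groups. Ldhb made up 95.4% ± 1.97 (SD, n = 3) of lactate dehydrogenase FPKM in the PV group and 79.1% ± 1.93 (SD, n = 3) in the Drd2 group. The other 8 genes overlapped, and 7 of the 10 were at their lowest in the same library, PV replicate 7, as were 40.8% of all genes tested.

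The sequences upstream of Ldha, Gapdh and Ldhb are shown because the first pair separated the groups and the last did not. They come from RefSeq promoter windows of build GRCm38.p6, in which all 10 genes matched, and are trimmed to the 250 bases before the start. Ldha has a second window further downstream, described after them. None of the 3 windows printed overlaps an annotated exon, and those of Ldha and Gapdh lie inside the annotated span of their own gene, downstream of its outermost start. Capitals mark CACGTG (the E-box), ACGTG and GCGTG (forms of the core of the hypoxia response element) and TGACGTCA (the cAMP response element), searched on both strands. Every E-box contains ACGTG on each strand.
Ldha (chr7:46845554-46845803, plus strand): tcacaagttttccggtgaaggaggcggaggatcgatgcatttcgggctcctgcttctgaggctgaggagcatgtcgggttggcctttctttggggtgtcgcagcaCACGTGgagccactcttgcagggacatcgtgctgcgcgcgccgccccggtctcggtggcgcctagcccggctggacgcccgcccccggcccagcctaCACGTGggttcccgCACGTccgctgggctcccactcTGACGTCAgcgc
Gapdh (chr6:125165774-125166023, minus strand): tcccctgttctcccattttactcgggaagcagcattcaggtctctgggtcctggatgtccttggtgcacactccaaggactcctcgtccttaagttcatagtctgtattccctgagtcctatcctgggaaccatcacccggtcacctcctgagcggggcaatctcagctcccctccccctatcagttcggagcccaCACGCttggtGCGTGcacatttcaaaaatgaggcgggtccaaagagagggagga
Ldhb (chr6:142507958-142508207, minus strand): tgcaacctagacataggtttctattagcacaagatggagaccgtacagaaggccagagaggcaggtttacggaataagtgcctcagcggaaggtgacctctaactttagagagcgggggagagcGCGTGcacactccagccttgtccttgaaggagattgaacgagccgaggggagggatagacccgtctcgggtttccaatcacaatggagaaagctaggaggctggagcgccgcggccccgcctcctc

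The Ldha window printed held 2 E-boxes, 1 further ACGTG and 1 cAMP response element. The other Ldha window (chr7:46846832-46847081) held none of these motifs and 1 GCGTG. The Gapdh window held 2 copies of GCGTG, and the Ldhb window 1. Among 32817 windows of the same length, CACGTG was found in 6.02%, ACGTG in 16.6%, GCGTG in 28.1% and TGACGTCA in 1.55%. Either form of the hypoxia core was in 38.6% of all windows and in 12 of the 18 windows of the 10 genes. Some windows of Aldoa overlap each other, as do some of Pfkm, so a copy can be counted more than once. A match says only that these letters are present.

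Depth was similar across libraries. The spacing of low values, which steps by single reads, put the total behind each library between 23.8 and 33.7 in units of 1e6 fragments. The label genes sat on their own sides. Pvalb was at 349 to 563 FPKM in PV and at 10.4, 22.5 and 99.5 in Drd2 replicates 1, 2 and 3. Drd2 was at no more than 0.0132 in PV and at 42.7, 55.0 and 7.74 in those Drd2 replicates. Within the Drd2 group, replicate 3 thus had the highest Pvalb and the lowest Drd2. Neither label gene passed over all genes (limma adjusted p = 0.0501 for each). All 8 neuronal markers reached 1 FPKM in at least 1 library, and their sums were 1523 to 1671 FPKM in PV and 1269 to 1517 in Drd2, so every PV sum was above every Drd2 sum. The list holds Eno2, and its members did not move together: Snap25 was at 751 to 1109 FPKM in PV and 202 to 503 in Drd2, and Tubb3 at 61.7 to 311 in PV and 428 to 563 in Drd2. PV replicate 7 had the fewest genes at 1 FPKM or more (8610, against 10293 to 12398 in the other 5). Mitochondrial genes took 9.62% to 31.3% of the FPKM total in PV and 3.74% to 5.20% in Drd2. With values rescaled over nuclear genes, the log2 fold of Ldha was -1.95 and that of Gapdh -1.48.

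The 10 genes were among the better measured of each library. Reads recovered from FPKM and exon length ranged from 889 for Hk1 in PV replicate 7 to 192650 for Gapdh in Drd2 replicate 2, so counting error was small beside the spread between libraries. All but Hk1 lay above the 89th percentile of tested genes in every library, with a lowest percentile of 89.9, whereas Hk1 went down to 37.5. Together the 10 made up 0.601% to 1.28% of all FPKM in PV and 1.21% to 1.56% in Drd2. FPKM is per length of merged annotated exons, so an order among genes depends in part on the annotation. By group mean FPKM, the order in Drd2 was Gapdh, Aldoa, Ldhb, Pkm, Pgk1, Ldha, Eno2, Gpi1, Pfkm and Hk1. In PV it was Ldhb, Aldoa, Gapdh, Pkm, Pgk1, Eno2, Pfkm, Gpi1, Ldha and Hk1. Neighbours such as Aldoa and Gapdh in Drd2 (1433 ± 264 and 1477 ± 250 FPKM), or Gpi1 and Pfkm in PV (83.2 ± 23.2 and 83.9 ± 43.0), did not differ beyond their spread (SD, n = 3 each).

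**Figure D1:**
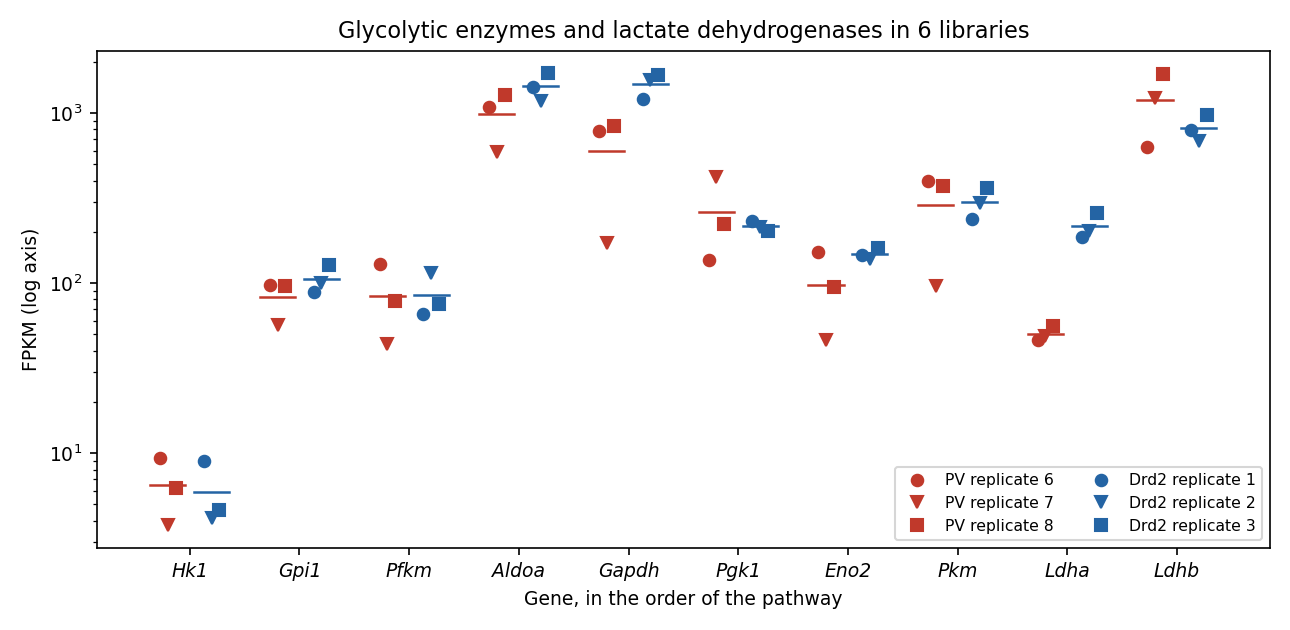
FPKM (log axis) of the 10 genes, in pathway order, in the 3 PV libraries (red) and the 3 Drd2 libraries (blue); each symbol is 1 library and each bar a group mean. Ldha in PV lies at 46.5 to 55.8 FPKM, below 186 to 258 in Drd2, and PV replicate 7 is the lowest library for 7 genes.

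In the lactate dehydrogenase step, Ldha (ENSMUSG00000063229, GRCm38 chromosome 7, 46841475 to 46855627) had FPKM values of 46.5, 48.5 and 55.8 in PV replicates 6, 7 and 8. Its Drd2 values were 186, 201 and 258 FPKM in replicates 1, 2 and 3. All PV libraries were low and close together, and the lowest Drd2 library was well above the highest PV library. The log2 fold of Ldha, on the log2(FPKM + 1) scale and as PV minus Drd2 throughout, was -2.06 ± 0.35 (SE). This was -1.79 relative to the median of all genes tested.

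Ldhb (ENSMUSG00000030246, chromosome 6, 142490249 to 142507957) did not follow its partner. PV replicates 6, 7 and 8 gave 629, 1218 and 1701 FPKM for it, whereas Drd2 replicates 1, 2 and 3 gave 796, 681 and 974. PV replicate 6 was the lowest of all 6 libraries and PV replicate 8 the highest, so the groups overlapped. The log2 fold was 0.43 ± 0.43 (SE), and 0.11 without PV replicate 8. Ldhc, the subunit known from testis, was at no more than 0.18 FPKM in any library.

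The ratio of Ldhb to Ldha did not overlap between the groups. PV replicates 6, 7 and 8 had ratios of 13.5, 25.1 and 30.5, whereas Drd2 replicates 1, 2 and 3 had 4.29, 3.39 and 3.77. In FPKM, Ldhb was the more abundant subunit in all 6 libraries. Ldhb also had more recovered reads in each, but by less (in Drd2 replicate 1, 42187 against 20722 for Ldha). As a share of the summed FPKM of Ldha, Ldhb and Ldhc, Ldhb was 93.1%, 96.2% and 96.8% in PV and 81.1%, 77.2% and 79.0% in Drd2. The shares did not overlap, and the difference was 16.2 percentage points. A share within a library does not move when the library is rescaled as a whole.

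In the upper part of the pathway, all 4 members overlapped between the groups. Hk1 (ENSMUSG00000037012, chromosome 10, 62268855 to 62379908), the hexokinase that traps glucose in the cell, was the least abundant. Its FPKM was 9.37, 3.76 and 6.27 in PV, compared with 9.01, 4.15 and 4.62 in Drd2. The 2 groups spanned nearly the same range, and the log2 fold was 0.10 ± 0.63 (SE).

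Gpi1 (ENSMUSG00000036427, chromosome 7, 34201330 to 34230336), the isomerase that makes fructose 6-phosphate, was at 96.9, 56.4 and 96.2 FPKM in PV and at 89.0, 99.6 and 128 in Drd2. PV replicate 7 was the low point and Drd2 replicate 3 the high point. Pfkm (ENSMUSG00000033065, chromosome 15, 98092589 to 98132451), the muscle-type subunit of the committing enzyme phosphofructokinase, was at 129, 43.8 and 78.6 FPKM in PV and at 65.7, 114 and 75.6 in Drd2. Both the highest and the lowest Pfkm value came from PV libraries. The log2 folds were -0.36 ± 0.39 for Gpi1 and -0.11 ± 0.47 for Pfkm (SE).

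Aldoa (ENSMUSG00000030695, chromosome 7, 126795234 to 126800751), the aldolase that splits fructose 1,6-bisphosphate, was one of the most abundant of the 10. It was at 1087, 585 and 1269.6 FPKM in PV and at 1414, 1179 and 1706 in Drd2. Only PV replicate 8 lay within the Drd2 range, and the log2 fold was -0.61 ± 0.40 (SE), or -0.27 without PV replicate 7. The second Aldoa row (ENSMUSG00000114515, chromosome 7, 126800790 to 126809108), an upstream gene model, reached 1.05 FPKM in Drd2 replicate 3 and 0.588 in PV replicate 6, was listed at 0 elsewhere and did not pass the filter on low values.

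In the lower part of the pathway, Gapdh was the member whose groups did not overlap. Gapdh (ENSMUSG00000057666, chromosome 6, 125161715 to 125166467), which reduces NAD while oxidising glyceraldehyde 3-phosphate and is widely used as a reference gene, had values of 786, 173 and 831 FPKM in PV replicates 6, 7 and 8. Drd2 replicates 1, 2 and 3 had 1198, 1553 and 1679.7 FPKM. Every PV library lay below every Drd2 library, and PV replicate 7 lay far below the other PV libraries. The log2 fold was -1.59 ± 0.58 (SE), and -0.85 without PV replicate 7.

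Its neighbour Pgk1 (ENSMUSG00000062070, chromosome X, 106187100 to 106203699), which makes the first ATP of the pathway, showed another pattern. It was at 137, 419 and 223 FPKM in PV and at 230.2, 214 and 201 in Drd2. The 3 Drd2 libraries were close together, while the PV libraries spread to both sides of them and PV replicate 7 was the highest of all. The log2 fold was 0.12 ± 0.44 (SE), and -0.30 without PV replicate 7. PV replicates 6, 7 and 8 had Gapdh to Pgk1 ratios of 5.72, 0.411 and 3.73, against 5.20, 7.25 and 8.36 for Drd2 replicates 1, 2 and 3, so these 2 common reference genes did not keep a fixed ratio.

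Eno2 (ENSMUSG00000004267, chromosome 6, 124760053 to 124769673), the neuronal enolase, was at 152, 46.0 and 94.8 FPKM in PV and at 145, 139 and 160.1 in Drd2. The Drd2 values were tight, and only PV replicate 6 reached them. Pkm (ENSMUSG00000032294, chromosome 9, 59656368 to 59679375), the pyruvate kinase gene whose M1 and M2 splice forms a gene-level table cannot separate, was at 396, 96.3 and 370.3 FPKM in PV and at 236, 296 and 359 in Drd2. PV replicates 6 and 8 were above all Drd2 libraries and PV replicate 7 below all of them. The log2 folds were -0.75 ± 0.46 for Eno2 and -0.28 ± 0.54 for Pkm (SE). Without PV replicate 7 they were -0.30 and 0.38.

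Across the 10 genes the median log2 fold was -0.32, beside -0.28 for all 11478 genes tested, with 7 folds below 0 and 3 above, and 61.6% of all tested genes were below 0. The signs of Hk1, Gpi1, Pfkm, Pgk1 and Pkm each flipped under at least 1 alternative. Those of Ldha, Gapdh, Aldoa, Eno2 and Ldhb held under all 18, with the changes in size given above. Some of the 18 could not turn a sign. Another filter or a fit without the intensity trend leaves each fold as it is. For Ldha and Gapdh, whose groups do not overlap, neither another pseudocount nor leaving libraries out can turn it. Without overlap, 2 of 10 were lower in PV, where 13.1% of tested genes were, and 0 were higher, where 5.83% were. The genes were listed with this contrast known, so nothing is read from these counts. Over all genes, limma with Benjamini-Hochberg adjustment called 0.261%, of which 5 were higher in PV (0.0436%) and 25 lower (0.218%). With quantile normalization these were 22 and 46. With any 1 Drd2 library left out, limma called 1 to 3 genes, all higher in PV and 0 lower.

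**Figure D2:**
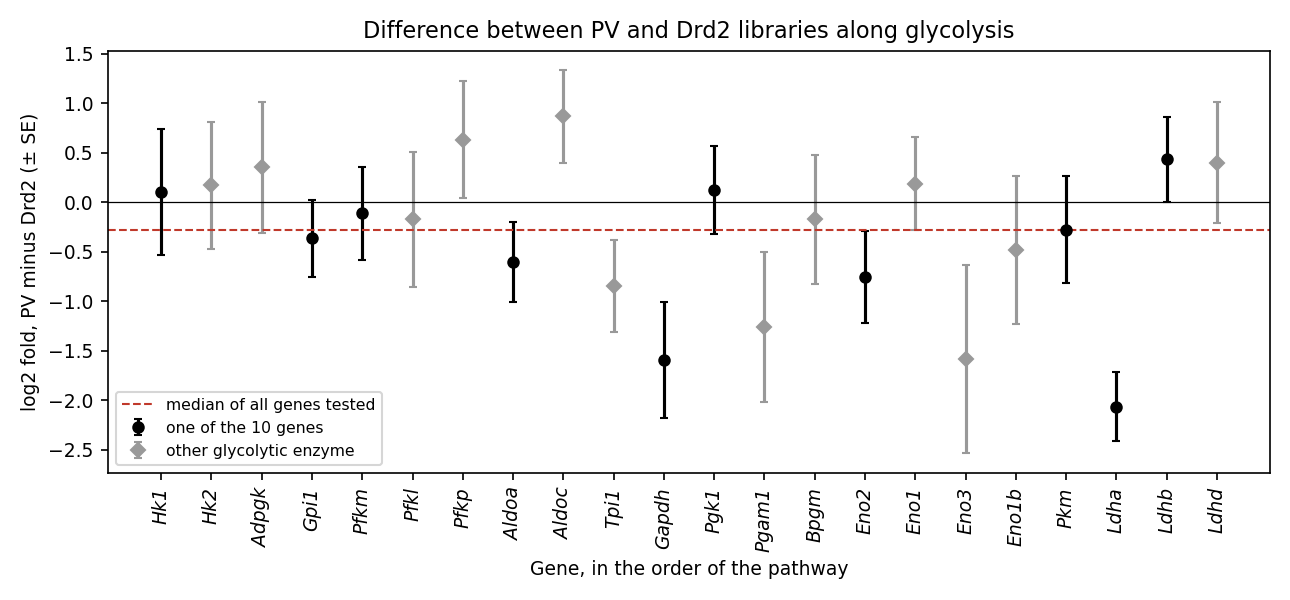
Log2 fold (PV minus Drd2, on the log2(FPKM + 1) scale, with SE from limma over 6 libraries) of the 10 genes (black) and of other glycolytic enzymes tested (grey), in pathway order. Ldha at -2.06 and Gapdh at -1.59 lie furthest below the dashed line, the median of all genes (-0.28), among the 10.

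Several enzyme families have paralogs, set side by side here in FPKM, which is per length. The length that gave whole reads was that of all annotated exons merged, such as 3310 bases for Ldha and 1570 for Ldhb. Shares and orders among genes therefore depend in part on the annotation, which is the same for every library. Aldoa exceeded Aldoc, the aldolase known from astrocytes and some neurons, in all 6 libraries. Of the FPKM of both together it held 68.1%, 54.7% and 71.2% in PV and 91.2%, 79.1% and 77.8% in Drd2, and these shares did not overlap. Aldoc was at 510, 485 and 512 FPKM in PV and at 137, 311 and 486 in Drd2, and its log2 fold, 0.87 ± 0.47 (SE), did not pass (adjusted p = 0.481 in limma). Markers of astrocytes summed to 71.0 to 197 FPKM in PV and 22.0 to 114 in Drd2. Most of the PV sums was S100b, at 45.4 to 144 FPKM in PV and 10.9 to 96.7 in Drd2. The list did not move together: Aldh1l1 was at 0.992 to 8.54 in PV and 0.295 to 0.975 in Drd2. Gja1 was at no more than 0.669 in PV and 0.483 to 4.60 in Drd2. The part of astrocyte RNA in the Aldoc values was not tested.

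Eno1, the ubiquitous enolase, exceeded Eno2 in FPKM in every library. Its share of enolase FPKM was 64.9%, 74.7% and 80.3% in PV and 57.6%, 54.9% and 62.7% in Drd2, without overlap. Eno2 held 16.6% to 32.8% in PV and 33.7% to 38.8% in Drd2. Eno1 itself overlapped, at 301, 138 and 460.1 FPKM in PV and 221, 197 and 298 in Drd2. Eno3, the muscle form, reached 19.8 FPKM and Eno1b 8.14 FPKM.

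By FPKM, Pfkm was the main phosphofructokinase in every library, with 51.1% to 75.0% of the family in PV and 63.7% to 81.3% in Drd2. Pfkl, the liver form, was at 6.35 to 42.1 FPKM in PV and 13.3 to 28.5 in Drd2. Pfkp, the platelet form, was at 8.84 to 33.1 FPKM in PV and 7.37 to 14.6 in Drd2. None of the 3 subunits set the groups apart.

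Of the other hexokinases, Hk2 and Hk3 were highest in Drd2 replicate 3, at 2.57 and 3.99 FPKM, beside 4.62 FPKM of Hk1 there. Hk3 is known from blood and immune cells, and microglial markers summed to 3689 FPKM in that library, against 23.9 and 92.9 in the other Drd2 libraries and 448 to 1393 in PV. The part of microglial RNA in the Hk3 value was not tested. Pklr, Pgk2 and Gapdhs each made up less than 1% of their families in every library, the highest share being 0.389% for Pklr in PV replicate 6.

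**Figure D3:**
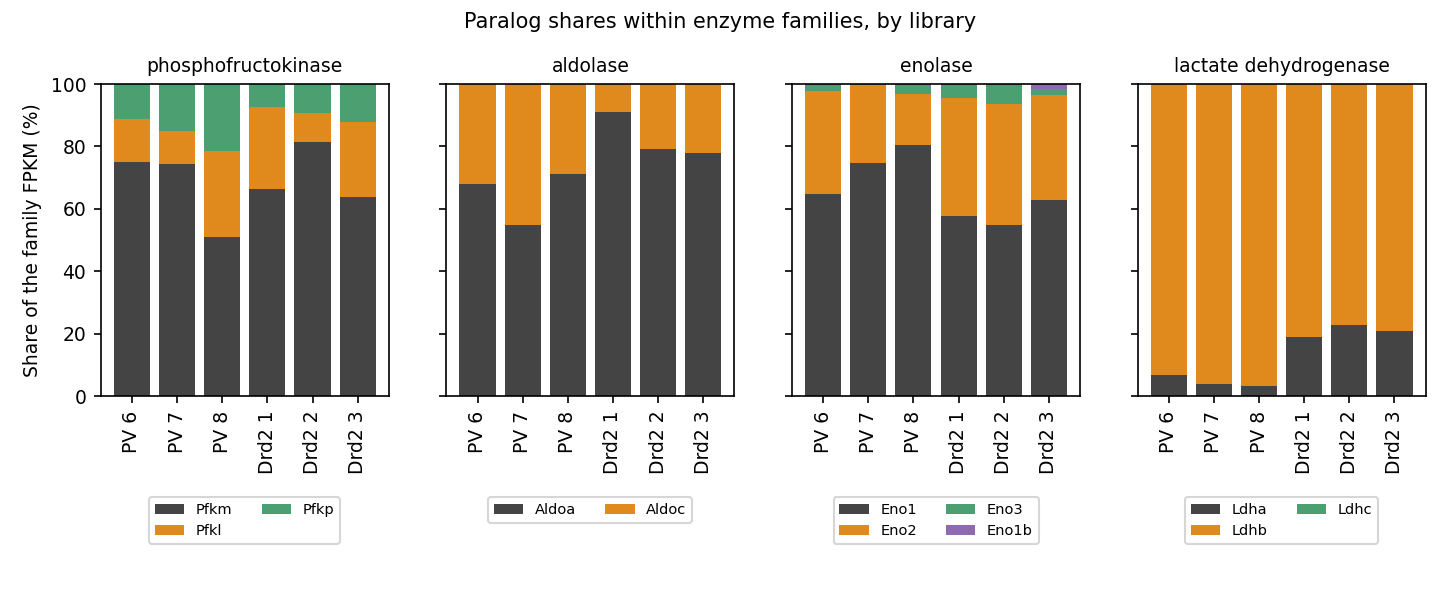
Share (%) of each paralog in the summed FPKM of the paralogs shown, for 4 enzyme families, as stacked bars, 1 bar per library (3 PV, then 3 Drd2). The Ldha part is 3.18% to 6.88% in PV and 18.9% to 22.8% in Drd2, and the Aldoc part is larger in PV than in Drd2.

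Among the other glycolytic enzymes, 13 of 21 passed the filter, and limma called 0 in either direction, beside 0.261% of all genes tested. An unadjusted p under 0.05 was seen for 1. Tpi1, triosephosphate isomerase, was at 432, 155 and 486 FPKM in PV and at 539.7, 559 and 633 in Drd2. All its PV values were below all its Drd2 values, and it did not pass (log2 fold -0.85 ± 0.47, SE, and -0.33 without PV replicate 7; limma adjusted p = 0.486). The median log2 fold of the 13 was -0.17.

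The genes around glycolysis were counted in 9 further lists, so that with the other enzymes 90 of 111 genes in 10 lists were tested. Limma called 0 of the 90, beside 0.261% of all genes tested, so a count of 0 in any of these lists says little. At an unadjusted p under 0.05 there were 2 higher in PV (3.02% of all genes) and 4 lower (9.77%). Of the 90, 48 had a fold above 0 and 42 below. Their median log2 fold was 0.08, beside -0.28 for all genes. Without PV replicate 6, 1 gene passed, the pentose phosphate enzyme gene Pgls (log2 fold -4.23, limma adjusted p = 0.0429). With all 6 libraries Pgls did not pass (log2 fold -2.80, limma adjusted p = 0.318). PV replicate 6 was the only PV library in which Pgls lay within its Drd2 range.

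The step from pyruvate into mitochondria held both genes with an unadjusted p under 0.05 that were higher in PV. Dlat, the E2 subunit of pyruvate dehydrogenase, was at 23.8, 22.6 and 23.5 FPKM in PV and at 4.39, 14.2 and 9.66 in Drd2 (log2 fold 1.34 ± 0.54, SE; limma adjusted p = 0.336). Pdp1, the phosphatase that activates that complex, was at 13.9, 13.0 and 20.001 FPKM in PV and at 7.54, 1.55 and 6.39 in Drd2 (limma adjusted p = 0.337). The groups did not overlap for either gene, and neither passed over all genes. Of 12 tested genes of this list 6 had a fold above 0, among them Pdhb (log2 fold 0.35), while Pdk2, an inhibitory kinase of the complex, had a log2 fold of -1.16 (-0.46 without PV replicate 7).

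For lactate and pyruvate transport, 5 of 7 genes were tested and 0 called. Bsg, the basigin chaperone of monocarboxylate transporters, was at 321, 239 and 226 FPKM in PV and at 479, 337 and 437 in Drd2, without overlap (limma adjusted p = 0.455). Mpc1 and Mpc2, the subunits of the mitochondrial pyruvate carrier, had log2 folds of 0.59 and 0.56 (0.27 and 0.31 without PV replicate 7). Emb, another transporter chaperone, had one of 0.36 (0.02 without Drd2 replicate 2). Slc16a7, the transporter MCT2 usually assigned to neurons, did not pass the filter.

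In glucose transport, 6 of 9 genes were tested and 0 called. Slc2a6 was at 8.82, 0.169 and 2.64 FPKM in PV and at 9.14, 10.6 and 20.9 in Drd2 (log2 fold -1.98; limma adjusted p = 0.359), and Slc2a8 had a log2 fold of -1.52. Without PV replicate 7 these were -1.20 and -0.64. Slc2a13, a proton-coupled inositol transporter of the same family, had one of 1.21. Slc2a1, the ubiquitous glucose transporter GLUT1, was at 0.0309 to 10.4 FPKM in PV and 1.89 to 8.16 in Drd2. The 4 tested genes of fructose 2,6-bisphosphate control included Pfkfb3, Pfkfb4, Pfkfb2 and Tigar, with log2 folds of 0.83, 0.36, 0.11 and -0.14 and 0 calls, and the sign turned for Pfkfb4, Pfkfb2 and Tigar when single libraries were left out.

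In the NADH shuttles, which move reducing equivalents into mitochondria, 8 of 9 tested genes had a fold above 0 and 0 were called. Gpd1l was at 4.17, 10.3 and 8.84 FPKM in PV and at 0.508, 1.92 and 4.10 in Drd2 (log2 fold 1.56; limma adjusted p = 0.415), and Gpd2 and Mdh2 had log2 folds of 0.66 and 0.50 (0.40 without Drd2 replicate 3 and 0.19 without PV replicate 8). The exception was Slc25a11, the oxoglutarate carrier, at 135, 12.4 and 142 FPKM in PV and 179, 105 and 210.2 in Drd2 (log2 fold -1.32, and -0.19 without PV replicate 7). Of 15 tricarboxylic acid cycle genes 11 had a fold above 0 (median 0.23) and 0 were called; Ogdh and Sucla2 had log2 folds of 0.69 and 0.64 and Sdhc of -1.25. Without PV replicate 7, Sucla2 was at 0.03 and Sdhc at -0.14.

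In the pentose phosphate pathway, which branches off at glucose 6-phosphate, 6 of 7 tested genes had a fold below 0 and 0 were called. Pgls was at 22.0 FPKM in PV replicate 6, under 1 FPKM in the other PV libraries, and at 18.7, 19.9 and 25.4 in Drd2. Taldo1 and Tkt, of the nonoxidative arm, had log2 folds of -1.11 and -0.89, and H6pd of 1.14. Without PV replicate 7, Tkt was at -0.50, and without PV replicate 8, H6pd was at 0.43. Among 11 tested glycogen genes 0 were called; Pygl, the liver glycogen phosphorylase, was at 10.6, 6.03 and 1.08 FPKM in Drd2 and at no more than 0.185 in PV (log2 fold -2.39; limma adjusted p = 0.207), and Gyg, Gys1 and Pygb had log2 folds of 2.00, 1.23 and -1.73. That of Gyg was 0.64 without Drd2 replicate 1, where it was listed at 0, and that of Pygb -0.87 without PV replicate 8. Of 8 tested regulators of the hypoxia response 0 were called. Hif1a, whose product acts through the motif shown above, was at 9.22, 24.3 and 19.0 FPKM in PV and 9.95, 5.85 and 16.1 in Drd2, and Egln2, Egln1 and Epas1 had log2 folds of -1.56, -1.45 and 1.25. Without PV replicate 7, where Egln2 was at 0.0258 FPKM, these were 0.10, -0.68 and 0.68.

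Gapdh and Pgk1 serve as reference genes, so 14 other reference genes were set beside them. Of these 11 had a fold below 0, as had 61.6% of all genes tested (median -0.63, which is -0.36 relative to all genes). Limma called 0 of the 14, beside 0.261% of all genes tested. As with Gapdh, 4 of the 14 were lower in PV without overlap, among them Rplp0, Ywhaz and Eef1a1, as were 13.1% of all genes tested. Rplp0, a ribosomal protein gene, was at 142, 199 and 94.7 FPKM in PV and at 258, 227 and 420.2 in Drd2 (log2 fold -1.06; limma adjusted p = 0.329). Ywhaz, Eef1a1 and Ppia had log2 folds of -0.80, -0.77 and -0.57. Without PV replicate 7, Gapdh was at -0.85, Rplp0 at -1.32 and Eef1a1 at -0.99.

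Reads of near-identical copies are uncertain. Annotated pseudogenes that matched at least 50% of a coding sequence at 90% identity or more numbered 157 for Gapdh, 11 for Ldha, 5 for Pkm, 4 for Aldoa, 2 for Pgk1, 1 each for Gpi1 and Ldhb, and 0 for Hk1, Pfkm and Eno2. Those of Gapdh summed to 8.25 to 79.8 FPKM in PV and 50.8 to 231 in Drd2. Those of Ldha summed to 5.77, 0.0362 and 12.8 FPKM in PV and 0.597, 1.49 and 19.7 in Drd2. With these added, Ldha stood at 52.3, 48.6 and 68.6 FPKM in PV and 186, 202 and 278 in Drd2, and neither Ldha nor Gapdh overlapped between the groups. Exons of Gapdh overlap Iffo1 over 68 bases on the opposite strand, and Iffo1 was at no more than 17.9 FPKM.

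The libraries also differed in RNA of other cell types, and only some of it moved with the groups. The 5 markers of red blood cells reached sums of 3002, 3204 and 743 FPKM in PV replicates 6, 7 and 8, against at most 12.1 in Drd2. Markers of oligodendrocytes summed to 60.5 to 327 FPKM in PV and 48.0 to 1245 in Drd2, and those of their precursors to 10.7 to 24.8 against 1.67 to 4.35. The largest precursor marker differed by PV library: C1ql1 (14.2 FPKM) in replicate 6, Lhfpl3 (10.6) in replicate 7 and Neu4 (16.7) in replicate 8. Only Lhfpl3 was higher in every PV library (4.61 to 10.6, against 1.67 to 3.85). Pdgfra reached at most 1.13 FPKM and Cspg4 0.045, so the sum is no steady sign of precursor RNA. Of 7 vascular markers only Acta2 reached 1 FPKM, and Cldn5 was at 0 throughout. The ependymal list summed to at most 8.05 FPKM. Drd2 replicate 3, with 258 FPKM of Ldha, held the most microglial RNA, and Drd2 replicate 1, with 186, the least. The order did not hold between the groups. Microglial markers summed to 448 to 1393 FPKM in PV, where Ldha was at 46.5 to 55.8. They summed to 92.9 in Drd2 replicate 2, where Ldha was at 201. The part of these lists in the values of the 10 genes was not tested.

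The genes most like the 10 were sought with the mean log2(FPKM + 1) of the 10 over the 6 libraries. Among 6208 named genes outside the list with a mean of at least 5 FPKM, the highest Pearson correlations were 0.997 for Shfl, 0.996 for Txnrd1, 0.995 for Ntpcr, 0.995 for Pxk and 0.994 for Tpi1. Tpi1 is itself the glycolytic enzyme between aldolase and Gapdh, and Txnrd1 is the cytosolic thioredoxin reductase. All 5 were at their lowest in PV replicate 7 and their highest in Drd2 replicate 3. The 6 points share libraries, depth and composition with the 10 genes, and many other tested genes were also at their lowest in PV replicate 7.

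**Figure D4:**
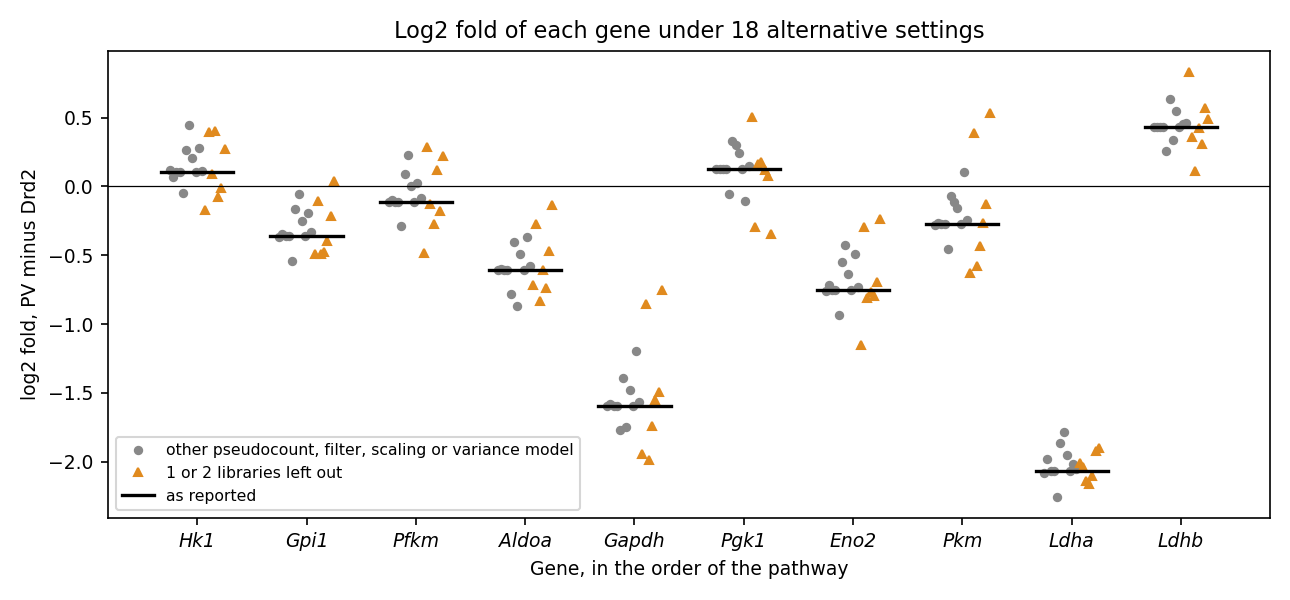
Log2 fold (PV minus Drd2) of each of the 10 genes as reported (black bar) and under 18 alternative settings (grey, another pseudocount, filter, scaling or variance model; orange, 1 or 2 libraries left out). Ldha stays between -2.25 and -1.79, and Gapdh between -1.98 and -0.75.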

How the data were processed

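The authors deposited 1 table of FPKM, that is, fragments per kilobase and per 1e6 fragments. STAR and the builds hg38, GRCh38 and mm10 appear in the submitters' processing notes, and all identifiers are of mouse. The sources used here name no quantifier, strand setting or annotation release. Exon lengths and positions came from GENCODE M21 (GRCm38), which held 94.0% of the identifiers. Genes reaching 1 FPKM in 3 or more libraries were compared as log2(FPKM + 1) by limma 3.58.1 in R 4.3.3, with an intensity trend, 2-sided, Benjamini-Hochberg adjusted over all 11478 genes at 0.05. The pseudocount understates folds of low genes. Reads were recovered as FPKM times exon length times the denominator, and 97.9% to 98.8% of values up to 20 reads were whole within 0.01. These describe counting error only. Pseudogenes were found with BLAST 2.17.0.

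The genes, lists and alternatives were chosen with earlier results of these data known. Besides the 10 genes, those named are Pvalb, Drd2, up to 4 per list with the smallest p, paralogs at 1 FPKM or more in any library, and the 5 genes most like the 10. Other genes named (markers, Slc16a7, Ldhc, Pgk2, Iffo1) were taken for their role or position. A few genes that this rule would name are not reported here, in text or figures.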

Additional observations from a re-analysis of the deposited data

How the results depend on the processing

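The groups share no replicate numbers. No paired analysis was possible because the PV libraries are numbered 6 to 8 and the Drd2 libraries 1 to 3. Over all genes limma called 30. It called 4 with a pseudocount of 0.1 FPKM, 68 with one of 5 FPKM, 0 with no filter on low values (1509 at an unadjusted p under 0.05), 68 with quantile normalization, 46 without the intensity trend, 105 with array weights, 22 with voom, and 18 without PV replicate 7 and Drd2 replicate 3. It called 1 to 56 with 1 library left out. The cause was not tested. The count of other pathway genes was 0 in every setting but 1, and 0 to 1 with 1 library left out. The median log2 fold of the 10 genes ran from -0.56 to -0.05 over the 18 alternatives. That of all genes was -0.50 after rescaling to TPM and 0.05 with quantile normalization. The difference in the Ldhb share ran from 15.3 to 17.4 percentage points with 1 library left out. Its direction could not turn, because the shares of the groups do not overlap. Chosen after the data were seen, the count of non-overlapping genes was repeated without PV replicate 7. Groups that do not overlap over all libraries cannot overlap over fewer, so Ldha and Gapdh were bound to stay lower in PV (17.6% of tested genes). Pkm was then higher without overlap (12.2%). Without Drd2 replicate 3 no further member was lower (18.9% of tested genes).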
